A study of Mus musculus with 12 samples.

Results

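The 4 mouse Hox gene clusters were examined for open chromatin in an immortalised blood progenitor line. The members were 38 of the 39 Hox genes in the reference table, out of 21887 protein-coding genes; the other one was not analysed here. They comprised 10 genes of the Hoxa cluster on chromosome 6, 10 of Hoxb on chromosome 11, 9 of Hoxc on chromosome 15 and 9 of Hoxd on chromosome 2. Each gene was taken by its name and followed over its span plus 10 kb on either side, so that neighbouring members often share the same peak.

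Hox proteins are homeodomain transcription factors that bind DNA together with TALE cofactors of the Meis and Pbx families. In each cluster the genes lie in order of their paralogue number, and in the embryo the low numbers act towards the head and the high numbers towards the tail. In blood, Hoxa9, Hoxb4 and their neighbours are known for their activity in stem and early progenitor cells and are shut down as myeloid cells mature, while clusters that a tissue does not use are held closed by Polycomb complexes and opened by the MLL (Kmt2a) complex. Asxl1 is a chromatin protein of the BAP1 deubiquitinase complex, which removes a histone mark laid down by Polycomb.

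The study used ATAC-seq, in which a transposase cuts and tags accessible DNA, in HoxB8 cells. These are mouse bone marrow cells immortalised by the Hox factor Hoxb8, and their medium held SCF, the ligand of Kit, together with estrogen. Estrogen had been taken away 48 h before each of the 12 libraries, a step that switches off the estrogen-dependent Hoxb8 used in such lines. One factor was the CRISPR guide: sgNT has no target, and sgB2 is directed at Asxl1 to truncate it. The other was the pMICH vector, which was empty (Empty) or carried CSF3R T618I (T618I), a mutant form of the G-CSF receptor. Both factors were crossed, which gave 4 groups of 3 libraries, with sgNT/Empty as the control and sgB2/T618I as the double mutant. The labels do not say whether a line was a pool or a clone or whether the 3 libraries of a group were separate cultures, so p-values measure only the spread between these libraries.

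Each library was available as a list of broad peaks on mm10, with 18484 to 32975 peaks covering 9.23 to 17.9 Mb. No read counts were used, so the sequencing depth is unknown. sgNT lists held 26517 ± 4216 peaks (SD, n = 6) and sgB2 lists 25517 ± 4164, Empty lists 24366 ± 4187 and T618I lists 27667 ± 3413. A peak near the calling threshold can be present in one list and missing in another for reasons of depth alone. All 12 of the granulocyte-monocyte progenitor genes fixed as markers, among them Mpo, Elane, Kit and Spi1, had a peak within 10 kb in all 12 libraries. Of the other markers, 2 of 5 B-lymphoid, 1 of 4 T-lymphoid, 3 of 6 erythroid and megakaryocyte, 2 of 4 mast and basophil, 2 of 5 stromal and 1 of 4 endothelial genes did so. With T618I, 5 of the 12 progenitor markers fell in limma and none rose (adjusted p below 0.05). Over all genes tested, 1.05% fell and 2.08% rose. The T618I effect is a mean over both guides, and 0 of the 12 rose or fell in the interaction. Elane and Prtn3 are both among the 5. In sgNT cells their mean scaled peak-covered length changed little with T618I, from 2513 to 2493 bp and from 2513 to 2486 bp. In sgB2 cells it went from 2871 to 1227 bp and from 2962 to 1227 bp. Mpo and Kit, also among the 5, had lower T618I means with both guides. Elane and Prtn3 had identical values in the sgNT/Empty and sgB2/T618I libraries, so their falls are not independent. In a bulk library, fewer cells with an open site and a less open site per cell cannot be told apart.

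The Hox clusters held few peaks, most of them in Hoxb. Over the merged member windows, which span 510 kb, the 12 lists together held 50 of their 312201 peaks. Peaks that overlapped between libraries by at least 1 bp were merged into 13 regions, of 56682 in the genome. Of these 13 regions, 6 were found in a single library, 7 in at least 2 libraries and 1 in all 12 (7.69%, against 23.6% of all regions). Peak-covered length, scaled to an equal total per library, came to 3.14 bp per kb of member window, against 11.6 bp per kb over the windows of all genes. The Hoxb windows held 29 of the peaks and 7.15 bp per kb. The Hoxa and Hoxc windows held 10 each (2.35 and 2.29 bp per kb), and the Hoxd windows 1 (0.131 bp per kb). Per kb of their own windows, Hoxb4, Hoxb5 and Hoxb3 had 39.1, 18.2 and 15.0 bp, from partly shared peaks. The median over all genes was 10.5 bp per kb, and all other members lay below it.

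**Figure D1:**
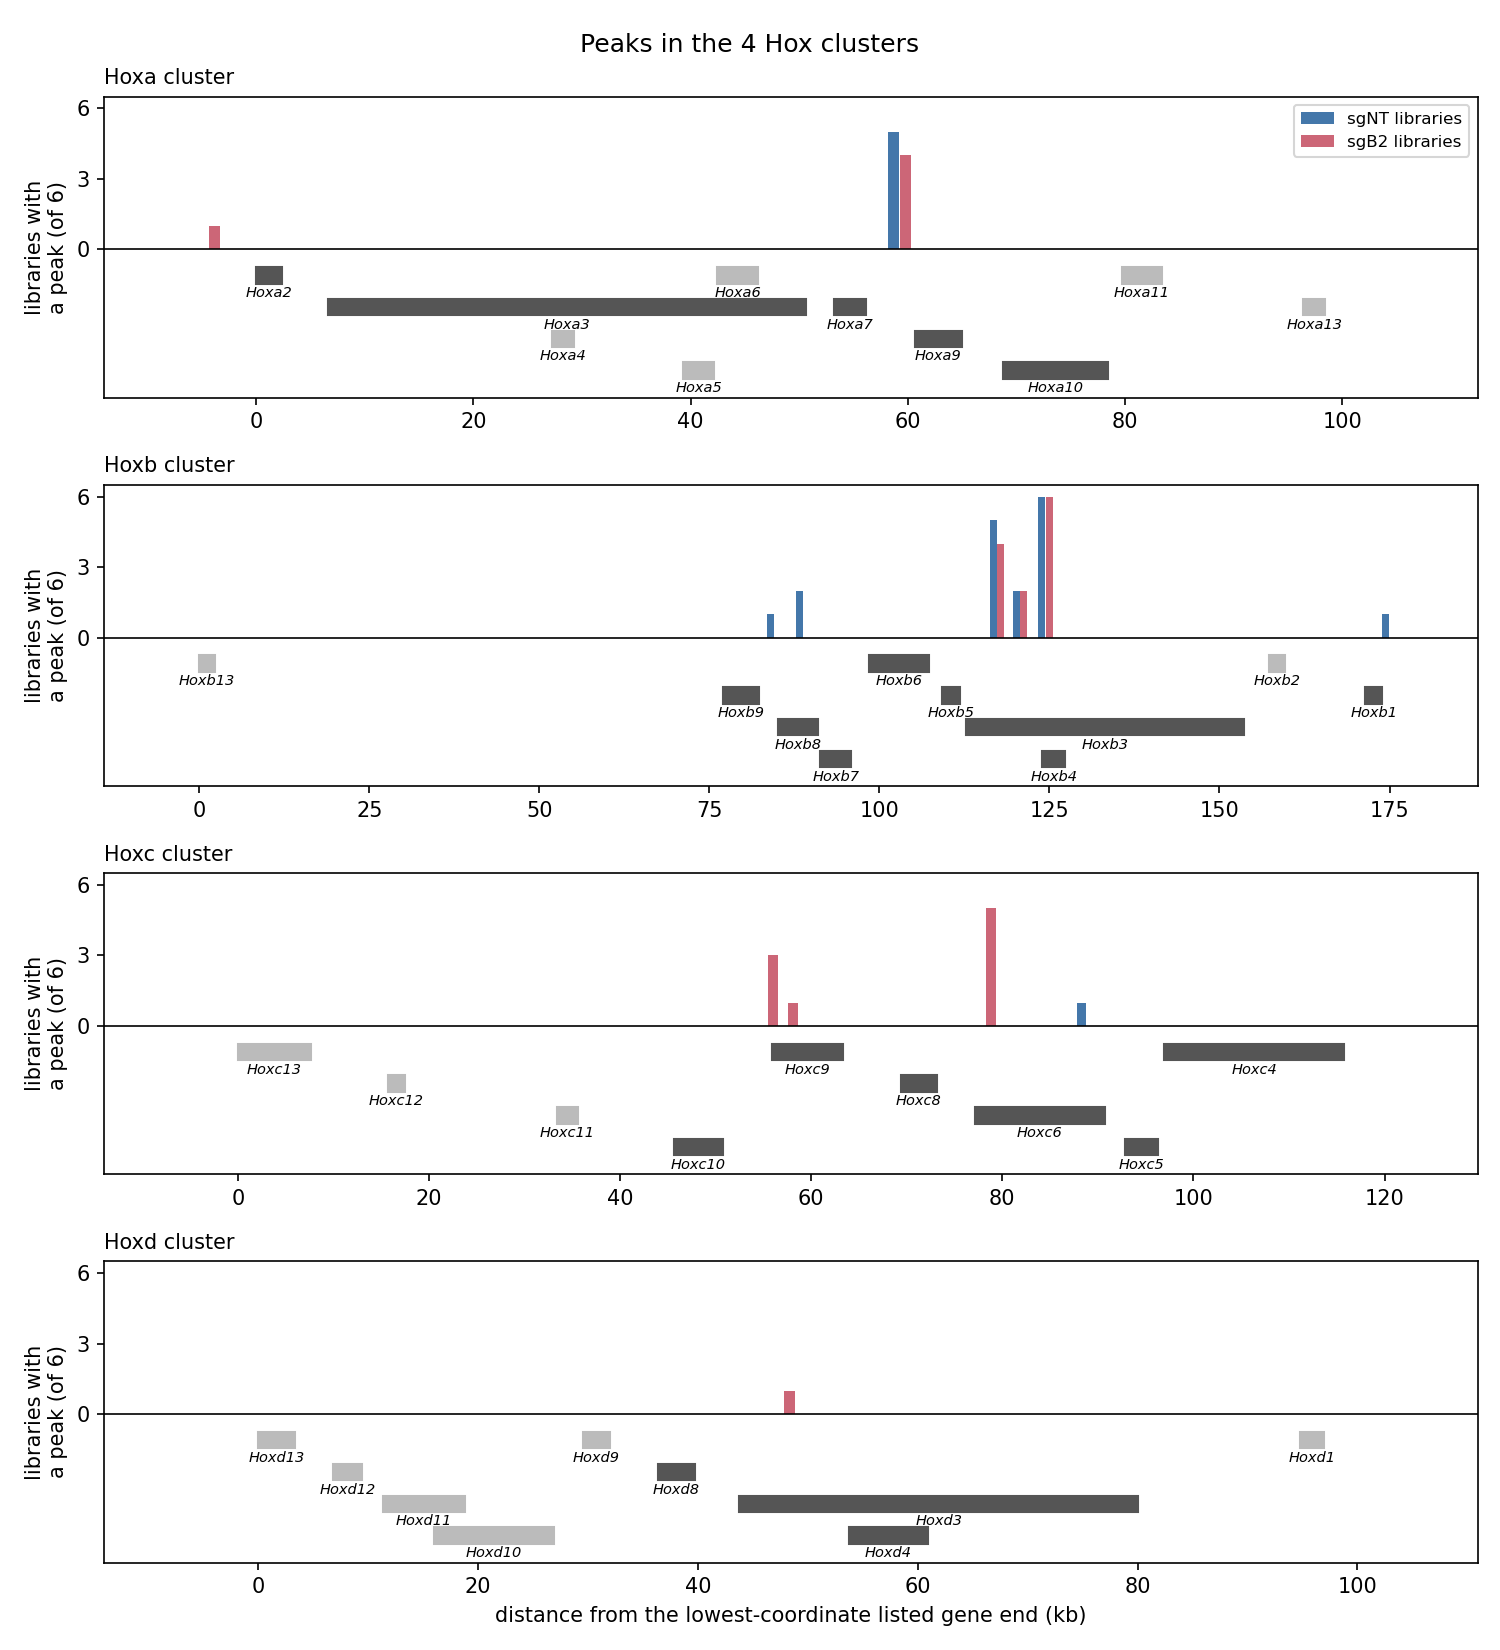
Positions of the peak regions in the 4 clusters. The x axis is the distance in kb from the lowest-coordinate member end, boxes are gene spans (light where no library had a peak within 10 kb), and bars count the sgNT and sgB2 libraries, of 6 each, with a peak; only the region at Hoxb4 reaches 6 in both, and the Hoxd cluster holds 1 peak in 1 library.

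Of the 38 members, 16 had no peak within 10 kb in any library. These were Hoxa4, Hoxa5, Hoxa6, Hoxa11 and Hoxa13, Hoxb2 and Hoxb13, Hoxc11, Hoxc12 and Hoxc13, and Hoxd1, Hoxd9, Hoxd10, Hoxd11, Hoxd12 and Hoxd13. This is 42.1% of the members, against 25.6% of all protein-coding genes. The member windows were shorter, with a median of 23.7 kb against 37.2 kb for all genes. A shorter window has less room for a peak, so these shares are not on equal terms. Only Hoxb3 and Hoxb4, whose spans overlap, had a peak in all 12 libraries (5.26% of members, against 54.6% of all genes). By position in the clusters, 5 of 7 members of paralogue groups 1 to 3, 12 of 15 of groups 4 to 8 and 5 of 16 of groups 9 to 13 had a peak in at least 1 library. Members of one cluster often share a region, so these counts are not independent of each other. A region lay inside the span of 6 members, namely Hoxb3, Hoxb4, Hoxb8, Hoxc6, Hoxc9 and Hoxd3; the other 16 members with a nearby peak shared it with a neighbour or had it between genes.

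The listed start sites of the Hox genes were free of peaks. RefSeq promoter sequences (GRCm38.p6, from 250 bases before to 50 after a start) were listed for 22 members, with 24 start sites. None of these 24 windows overlapped a peak in any library, whereas 63.1% of the 32851 listed promoters of all genes had none. The Hox windows held a median of 14.5 CG dinucleotides (range 4 to 45), against a median of 7 over all promoters. Among the 11378 listed promoters with at least 15 CG, 22.3% had no peak and 65.9% had one in all 12 libraries. The Hox windows with at least 15 CG numbered 12, and all 12 were without a peak. Below are 3 of the 24 promoters. The Hoxb4 window ends just before the most reproducible Hox peak. Hoxb8 is the gene that immortalised the line. Hoxa9 is the member nearest to the main Hoxa peak, which lies beyond the 3′ end of the gene and not at this promoter. The sequences are on mm10 coordinates, at chr11:96318017-96318316 (plus strand), chr11:96281655-96281954 (plus strand) and chr6:52227321-52227620 (minus strand), 5′ to 3′. Capitals mark matches, on either strand, to the MEIS core TGACAG, the PBX-HOX composite core TGATNNA or the posterior HOX core TTTATNG.
Hoxb4: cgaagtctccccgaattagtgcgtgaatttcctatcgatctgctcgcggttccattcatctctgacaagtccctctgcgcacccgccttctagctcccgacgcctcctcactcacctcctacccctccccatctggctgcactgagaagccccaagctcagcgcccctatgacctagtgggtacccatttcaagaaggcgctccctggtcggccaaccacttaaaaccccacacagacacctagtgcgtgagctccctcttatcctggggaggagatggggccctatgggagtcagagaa
Hoxb8: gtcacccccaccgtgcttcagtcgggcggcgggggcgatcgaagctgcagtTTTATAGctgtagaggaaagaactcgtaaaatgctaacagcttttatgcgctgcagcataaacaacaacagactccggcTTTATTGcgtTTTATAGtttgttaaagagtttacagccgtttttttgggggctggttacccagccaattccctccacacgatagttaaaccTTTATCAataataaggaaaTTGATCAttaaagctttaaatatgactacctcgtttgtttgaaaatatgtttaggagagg
Hoxa9: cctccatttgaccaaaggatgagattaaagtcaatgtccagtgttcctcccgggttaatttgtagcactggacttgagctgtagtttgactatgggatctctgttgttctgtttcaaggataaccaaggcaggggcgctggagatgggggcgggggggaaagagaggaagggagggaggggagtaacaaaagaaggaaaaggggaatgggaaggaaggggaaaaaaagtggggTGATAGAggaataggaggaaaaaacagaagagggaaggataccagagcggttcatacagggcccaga
The Hoxb4 window held 14 CG and none of these matches, the Hoxb8 window 13 CG with 3 matches to TTTATNG and 2 to TGATNNA, and the Hoxa9 window 4 CG and 1 match to TGATNNA. Over all 24 member promoters, TGACAG was found in 2 (8.33%), TGATNNA in 9 (37.5%), TTTATNG in 2 (8.33%) and CCCTC, a part of the CTCF motif, in 17 (70.8%). Among all listed promoters the shares were 19.2%, 31.5%, 10.9% and 66.0%. A match is only a string of letters and not a bound site.

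**Figure D2:**
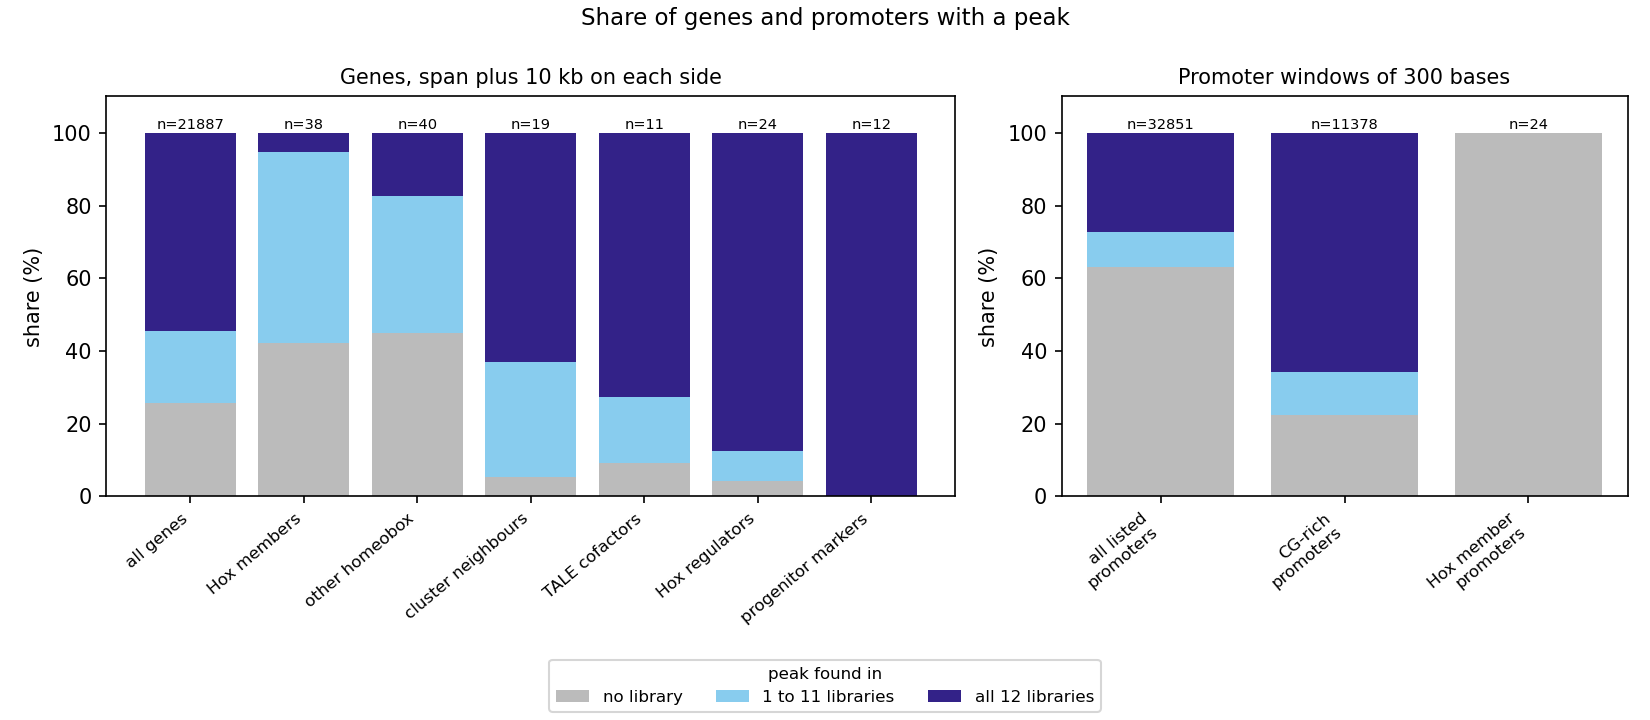
Share of genes (left, span plus 10 kb on each side) and of promoter windows (right, from 250 bases before to 50 after a start) with a peak in no library, in 1 to 11 or in all 12. Of the 7 gene sets drawn, the Hox members have the smallest share in all 12 libraries (5.26%), and all 24 Hox promoter windows fall in the class with no peak. The CG-rich promoters drawn beside them have at least 15 CG, as do 12 of the 24 Hox windows. Gene windows differ in length, with medians of 23.7 kb for Hox members, 37.2 kb for all genes, 63.0 kb for TALE cofactors and 51.2 kb for regulators.

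The most reproducible Hox peak lay at the beginning of Hoxb4, a gene known for expanding blood stem cells. The merged region spans chr11:96318387-96319093 and lies within the Hoxb4 span (chr11:96318267-96321638) and within the long Hoxb3 span; exon boundaries were not used here. In the 12 libraries the peak started 120 to 281 bp after the listed Hoxb4 start and was 376 to 691 bp wide. Its significance in the authors' lists fell between percentile 47.0 and percentile 76.8 of its own list, so it was of middling to high rank everywhere, and the authors' fold over background ranged from 4.66 to 6.85. Among the 13 Hox regions it was the only one with a −log10 q of at least 5 in all 12 libraries. The hairpin of the microRNA gene Mir10a lies 1113 bp away from it, outside the peak.

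Another region lay in the Hoxb3 span at lower coordinates (chr11:96311249-96312001), 6266 bp before the listed Hoxb4 start, and was present in 9 of 12 libraries. It had a peak in 2, 3 and 3 libraries of sgNT/Empty, sgB2/Empty and sgNT/T618I and in 1 library of sgB2/T618I. It was missing in sgNT/Empty replicate 1 and sgB2/T618I replicates 1 and 3, whose lists held 18484, 24995 and 23695 peaks. A weaker region between them (chr11:96314823-96315112) had peaks in 4 of 6 T618I libraries, 2 with each guide, and in none of the 6 Empty libraries. Its exact test stratified by guide gave p = 0.08 (two-sided; adjusted p = 1 over 37113 regions), and 3.04% of all regions found in at least 2 libraries were likewise present in at least 4 T618I libraries and no Empty library. With a peak in 2 libraries of each guide, 0.08 is the smallest p that this exact test can give. The 4 peaks of this region ranked between percentile 0.371 and percentile 37.4 of their lists, and 0 were left with lists of equal length or with the stricter −log10 q.

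Around Hoxb4, and identically around Hoxb3, whose window holds the same peaks, the scaled covered length was 608, 1192 and 750 bp in sgNT/Empty. It was 910, 1015 and 1066 bp in sgB2/Empty, 1124, 1048 and 1108 bp in sgNT/T618I, and 672, 1018 and 461 bp in sgB2/T618I. The group means were 850 ± 305, 997 ± 79.2, 1093 ± 39.96 and 717 ± 281 bp (SD, n = 3). The double-mutant group held the lowest single value, but the groups overlapped except that all 3 sgNT/T618I libraries lay above all 3 sgB2/T618I libraries. On the log2(scaled bp + 500) scale, limma gave a T618I effect of -0.03 ± 0.12 (SE; adjusted p = 0.899), an sgB2 effect of -0.12 ± 0.12 (adjusted p = 0.806) and an interaction of -0.59 ± 0.25 (unadjusted p = 0.0342, adjusted p = 0.998), each adjusted over 11890 genes. None of these passed. The sizes moved with the processing: with lists cut to an equal length of 18484 peaks the T618I effect was -0.39 ± 0.16 (adjusted p = 0.193) and the interaction -0.31, and with peaks limited to a −log10 q of at least 5 the interaction was -0.06.

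Hoxb3 and Hoxb4 were the only members that reached the mean of 500 bp required for the test. Neither was called for T618I (3.13% of all genes were called, 2.08% rising and 1.05% falling), for sgB2 (1.03%, 0.437% rising and 0.589% falling) or for the interaction (0.00841%, falling). At an unadjusted p below 0.05 the counts of members in limma were 0, 0 and 2, while 19.4%, 12.1% and 4.65% of all genes passed that level. The 2 are Hoxb3 and Hoxb4, whose values are identical in every library, so the same measurement is counted for each. With no requirement on the mean, 22 members had some coverage and could be fitted, and again none was called. In that fit the smallest p of a member was that of Hoxc8 with sgB2 (0.46 ± 0.12; unadjusted p = 0.00179, adjusted p = 0.0815), chosen here after its value was seen. Its window holds the Hoxc6 region described below.

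The members beside them had less. Hoxb5, a gene that marks long-term stem cells, reached 0, 710 and 414 bp in sgNT/Empty, 354, 479 and 404 bp in sgB2/Empty, 759, 436 and 658 bp in sgNT/T618I, and 213, 514 and 0 bp in sgB2/T618I. These values come from peaks inside the Hoxb3 span, and no peak lay inside Hoxb5 itself. Hoxb6, one gene further, had a mean of 137 bp over the 12 libraries, 3 of which were at 0.

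Hoxb8, the factor that immortalised these cells, had little open chromatin at its own locus (chr11:96279401-96285325). A peak inside the gene (chr11:96283017-96283333) was called in sgNT/Empty replicate 2 and sgNT/T618I replicate 1 and in no other library. It begins 1112 bp after the listed Hoxb8 start and ranked at percentile 15.3 and percentile 12.3 of these lists. Reads from an introduced Hoxb8 sequence cannot be told apart from those of the endogenous gene in a peak list. A further weak peak, 407 bp before the gene span, was found in sgNT/Empty replicate 2 alone. The scaled covered length of the Hoxb8 window was therefore 489 bp in that library, 244 bp in sgNT/T618I replicate 1 and 0 bp in the other 10. No sgB2 library had a peak within 10 kb of Hoxb8.

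The Hoxa cluster had 1 recurrent region, between Hoxa7 and Hoxa9 (chr6:52221486-52221899). Hoxa9 and Hoxa7 are the Hoxa genes best known in myeloid progenitors and leukaemia. Both genes are on the minus strand. The region lies outside both spans, 1198 bp beyond the 3′ end of Hoxa9 and 2913 bp before the listed start of Hoxa7. It falls into the windows of Hoxa3, Hoxa7, Hoxa9 and Hoxa10. It was present in 9 of 12 libraries: 2 of 3 in sgNT/Empty, in sgB2/Empty and in sgB2/T618I, and 3 of 3 in sgNT/T618I. The peak was 266 to 376 bp wide and ranked between percentile 16.4 and percentile 37.5 of the lists that held it. It was absent from replicate 1 of sgNT/Empty, sgB2/Empty and sgB2/T618I, with 18484, 20293 and 24995 peaks.

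Around Hoxa9 the scaled covered length was 0, 365 and 284 bp in sgNT/Empty, 0, 306 and 325 bp in sgB2/Empty, 231, 282 and 273 bp in sgNT/T618I, and 0, 231 and 323 bp in sgB2/T618I. Hoxa3, Hoxa7 and Hoxa10 have the same values, because this is the only region in their windows. The groups overlapped throughout, and the presence of the region did not pass an exact test for T618I (5 of 6 against 4 of 6 libraries, p = 1) or for sgB2 (4 of 6 against 5 of 6, p = 1). The only other Hoxa peak (chr6:52157712-52158394), within the window of Hoxa2, was called in sgB2/Empty replicate 3 alone.

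The Hoxc cluster differed in how its peaks were spread over the libraries. Of its 10 peaks, 9 were in sgB2 libraries and 1 in an sgNT library. The region in Hoxc6 (chr15:102999240-102999523, inside the span chr15:102998226-103011882) was found in 5 of 6 sgB2 libraries and in none of the 6 sgNT libraries. By group these were 2 of 3 sgB2/Empty and 3 of 3 sgB2/T618I libraries. Hoxc6 and Hoxc8 are central paralogues of the trunk, and this region is the only one in the Hoxc8 window.

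The Hoxc6 peak was narrow, 183 to 249 bp wide. In sgB2/Empty replicates 2 and 3 it ranked at percentile 51.7 and percentile 46.5 of the list, with a fold over background of 5.56 and 5.41. In sgB2/T618I replicates 1, 2 and 3 it ranked at percentile 20.1, 36.0 and 18.2. The sgB2 library without it, sgB2/Empty replicate 1, had the shortest sgB2 list, with 20293 peaks. The sgNT lists without it held 18484 to 29699 peaks, and the sgB2 lists 20293 to 32975. The median peak width per list was 473 ± 32.4 bp with sgNT and 430 ± 24.98 bp with sgB2 (SD, n = 6). Some sums over the marker lists also split by guide. The summed scaled covered length of the 4 mast and basophil markers (Cpa3, Ms4a2, Gata2 and Mcpt8) was 1376 to 1898 bp in sgNT/Empty, 1310 to 2022 bp in sgNT/T618I, 3332 to 4487 bp in sgB2/Empty and 3139 to 4030 bp in sgB2/T618I. Ms4a2 made up much of this difference, with group means of 55.4 and 0 bp with sgNT and 1067 and 1096 bp with sgB2; it reached the mean required for the test only through the sgB2 groups. In T618I cells the sums of the 12 progenitor markers (18483 to 19497 bp with sgB2, 23648 to 24653 bp with sgNT) and of the 5 B-lymphoid markers (1051 to 1622 and 2007 to 3067 bp) did not overlap between guides, and in Empty cells those of the 6 erythroid and megakaryocyte markers did not (5295 to 5880 bp with sgB2, 4195 to 4655 bp with sgNT). The progenitor and B-lymphoid sums overlapped between guides in Empty cells, and the erythroid and megakaryocyte sums did so in T618I cells. Those of the T-lymphoid, stromal and endothelial markers overlapped between guides with both vectors. With 3 libraries per group, sums can fail to overlap by chance alone, and how many other gene sets do so was not counted. The part of peak width or cell makeup in the Hoxc6 pattern was not tested.

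In T618I cells this region met the rule for a gain with sgB2, a peak in all 3 libraries of one guide and none of the other; it was the only one of the 7 Hox regions found in at least 2 libraries to do so, and of the 37113 such regions of the genome 0.878% were gained, 1.84% lost and 2.72% gained or lost in that comparison. With lists cut to an equal length, and with peaks limited to a −log10 q of at least 5, the Hoxc6 region was in 2 sgB2/Empty libraries and in 0 sgB2/T618I libraries, which ended this call. No Hox region was lost there. None was gained or lost with sgB2 in Empty cells, where 1.64% of all regions were (0.701% gained, 0.94% lost). None was with T618I in sgNT cells, against 3.79% of all regions (3.24% gained, 0.55% lost), or with T618I in sgB2 cells, against 4.15% (3.24% gained, 0.911% lost). The exact test stratified by vector gave p = 0.02 (two-sided) for the Hoxc6 region and sgB2, with an adjusted p = 1 over 37113 regions. At that level 0.294% of all regions were more often present with sgB2, and 0.207% were present in at least 5 of 6 sgB2 libraries and in no sgNT library. After adjustment 0 regions of the genome passed for sgB2 or for T618I. The smallest two-sided p this test can give depends on how many libraries hold the peak. For the Hoxc6 region it is the 0.02 found, and for no region is it below 0.005. Over 37113 regions the adjusted test therefore had little room to call any and says little about a single region.

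The other Hoxc regions were rarer. A region at the low-coordinate end of Hoxc9 (chr15:102975927-102977224) had peaks in sgB2/Empty replicate 2 and in sgB2/T618I replicates 2 and 3, and in no sgNT library (p = 0.2 for sgB2 by the exact test, adjusted p = 1). With peaks in so few libraries, 0.2 is the smallest p that the exact test can give. These peaks were 720, 1269 and 191 bp wide, and only that of sgB2/T618I replicate 2 reached the gene span (chr15:102977032-102984444). Hoxc9 is a posterior paralogue, and its window and that of Hoxc10 share the region. The hairpin of Mir196a-2 lies 2493 bp from it. A second Hoxc9 region (chr15:102978567-102978781) was found in sgB2/Empty replicate 2 alone. The sole sgNT peak of the cluster, in Hoxc6 (chr15:103009896-103010074), came from sgNT/Empty replicate 1 and ranked at percentile 2.97, near the bottom of its list.

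**Figure D3:**
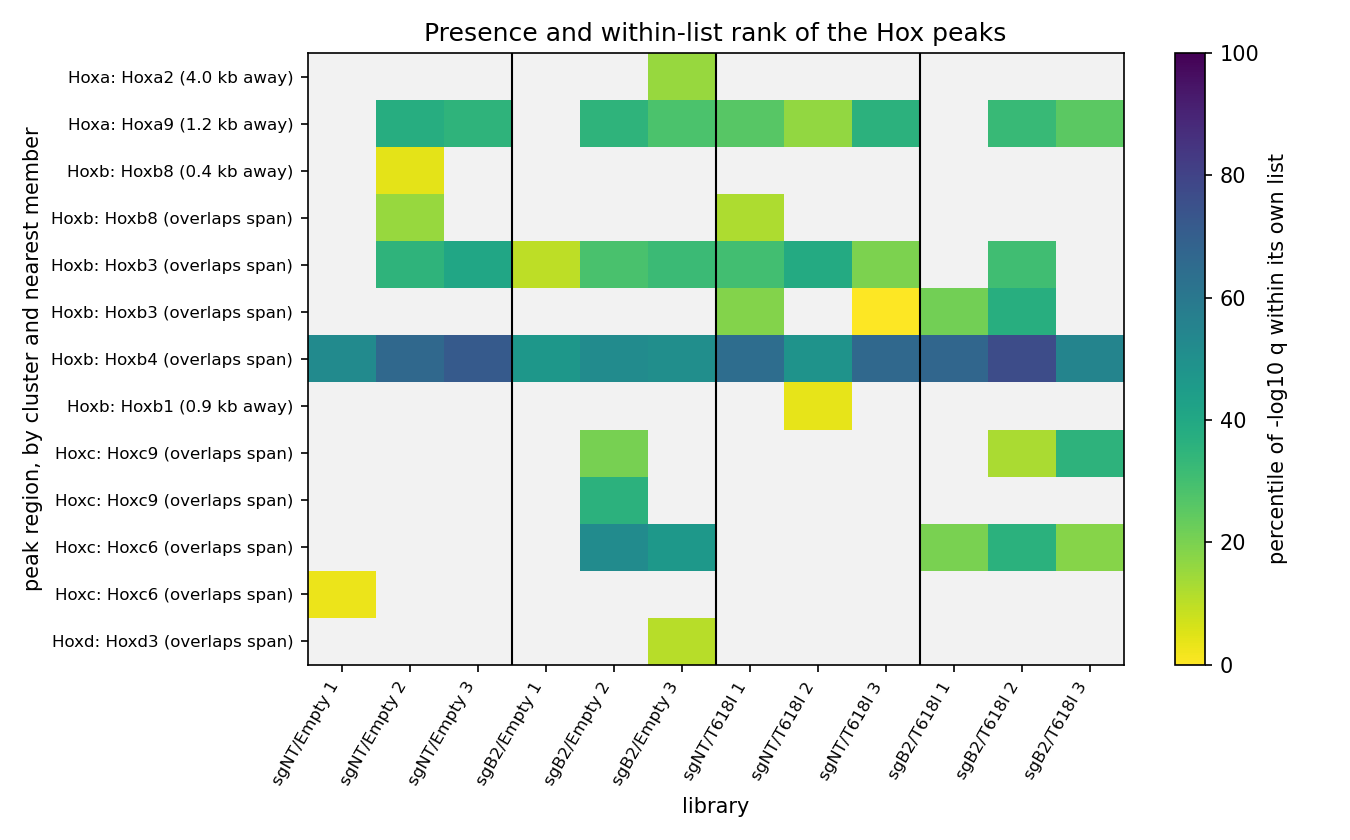
Presence of the 13 Hox regions (rows, labelled by the nearest member) in the 12 libraries (columns, separated by group), coloured by the percentile of the peak's −log10 q within its own list; pale grey means no peak. The Hoxb4 row is filled in all 12 libraries, and the Hoxc6 row with 5 peaks and the upper Hoxc9 row with 3 are filled in sgB2 libraries only.

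Summed over a whole cluster, the scaled covered length of Hoxc was 271, 0 and 0 bp in sgNT/Empty and 0, 0 and 0 bp in sgNT/T618I. It was 0, 1361 and 265 bp in sgB2/Empty and 191, 1175 and 472 bp in sgB2/T618I. The groups overlapped in Empty cells and did not in T618I cells. The sgB2 mean was 577 ± 559 bp and the sgNT mean 45.2 ± 111 bp (SD, n = 6), a difference of 532 bp (exact stratified permutation test, two-sided p = 0.05, adjusted p = 0.4 over the 8 cluster tests). The spread among sgB2 libraries was as large as the mean, and the difference did not pass after adjustment. Without sgB2/Empty replicate 2 it was 331 bp, and with peaks limited to a −log10 q of at least 5 it was 89.1 bp.

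Hoxb, the cluster with the most coverage, had 608, 1681 and 750 bp in sgNT/Empty, 910, 1015 and 1066 bp in sgB2/Empty, 1369, 1290 and 1108 bp in sgNT/T618I, and 672, 1018 and 461 bp in sgB2/T618I. In T618I cells the 3 sgNT libraries all lay above the 3 sgB2 libraries, and in Empty cells the guides overlapped. The mean difference with sgB2 was -277 bp (exact p = 0.2, adjusted p = 0.8) and that with T618I -18.8 bp (exact p = 0.925, adjusted p = 1). In equal-length lists these were -24.1 and -322.5 bp (exact p = 0.87 and 0.075), and with the stricter peaks the sgB2 difference was -59.6 bp. Hoxa changed by 79.2 bp with sgB2 (exact p = 0.755) and by -111 bp with T618I (exact p = 0.64), both with an adjusted p = 1. For Hoxc the difference with T618I was -9.92 bp (exact p = 1). Hoxd was at 0 in 11 libraries and at 184 bp in sgB2/Empty replicate 3, from a single peak in Hoxd3 (chr2:74715924-74716096). None of the 8 cluster tests passed, and the smallest two-sided p that 400 arrangements allow is 0.005. With 1 covered library, every arrangement gives a Hoxd difference of the same size, so neither Hoxd test could pass.

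**Figure D4:**
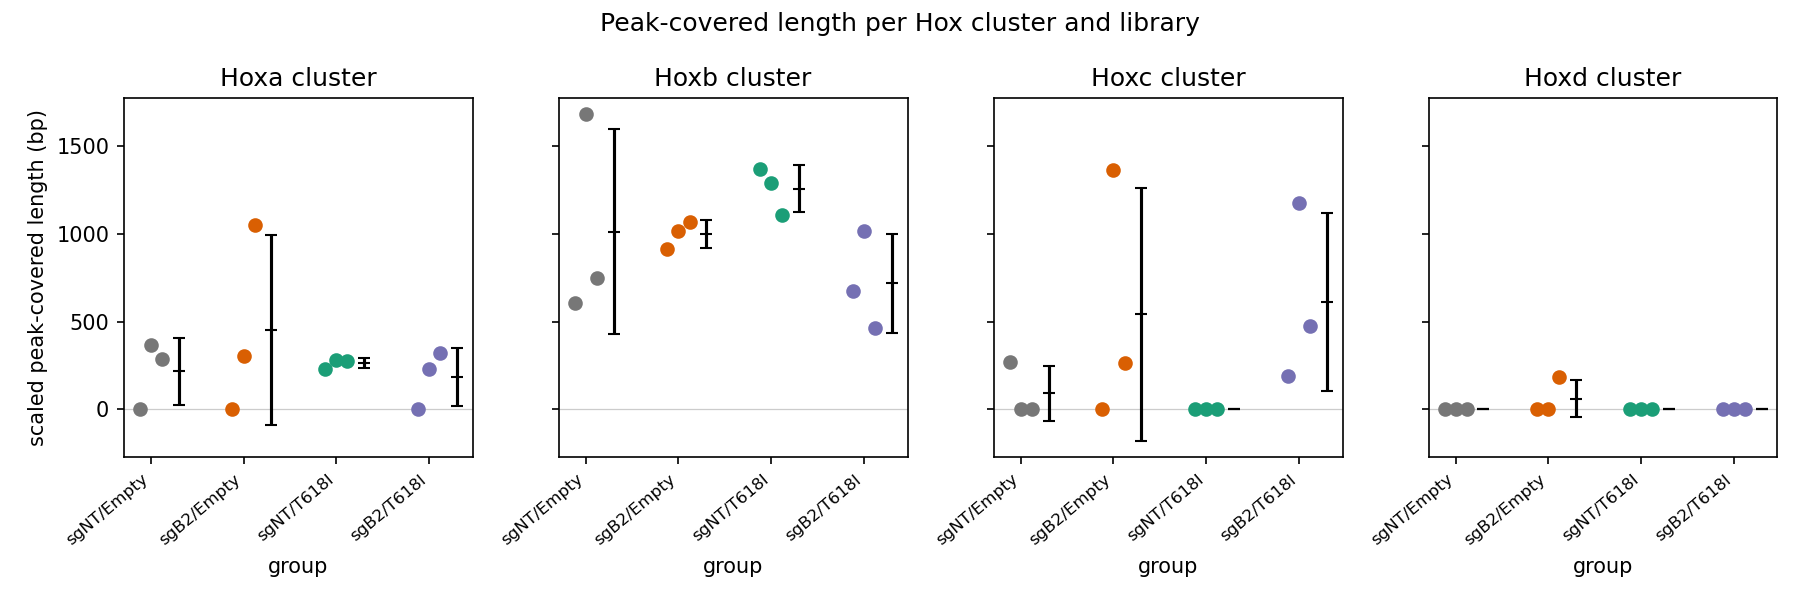
Scaled peak-covered length in bp (y axis) of each Hox cluster in each library (points) by group, with the mean and SD of 3 libraries beside them. Hoxb is covered in all 12 libraries, between 461 and 1681 bp, Hoxc is at 0 in 5 of 6 sgNT libraries, and Hoxd is at 0 in 11 of 12.

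Most genes that act with or upstream of the Hox factors had peaks in every library. The cofactors, regulators and neighbours named here were picked out after their values were seen. Of 11 TALE cofactor genes, 8 had a peak in all 12 libraries (72.7%, against 54.6% of all genes). Meis1, the main Hoxa9 partner in leukaemia, had a mean scaled covered length of 2220 bp, and Pbx3, Pbx2 and Pknox1 had 1606, 2002 and 1508 bp. Meis2 had no peak in any library, and Meis3 and Pknox2 had one in 6 each. Of 24 regulator genes, 21 had a peak in all 12 libraries (87.5%), including Kmt2a, Men1 and Dot1l. The exceptions were the caudal genes Cdx1, Cdx2 and Cdx4, embryonic activators of Hox genes, with a peak in 5, 3 and 0 libraries. In limma 0 of 7 tested cofactors and 0 of 21 tested regulators rose or fell with T618I or sgB2, or differed in the interaction, at an adjusted p below 0.05. Over all genes, 3.13%, 1.03% and 0.00841% were called for T618I, sgB2 and the interaction. Counts of 0 among so few genes therefore say little about them.

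Of 19 neighbouring genes in the reference, 12 had a peak in all 12 libraries (63.2%, near the 54.6% of all genes). Skap2 beyond the Hoxa cluster, Skap1 beyond Hoxb and Cbx5 and Nfe2 beyond Hoxc did so, with means of 1670, 512, 1778 and 2497 bp. Evx1 and Evx2, homeobox genes that sit at the posterior ends of Hoxa and Hoxd, had a peak in 1 and 0 libraries. None of the 11 neighbours tested was called by limma for either factor or the interaction. This says as little, with 3.13% (T618I), 1.03% (sgB2) and 0.00841% (interaction) of all genes called. Other developmental homeobox genes, followed for comparison, were about as often without a peak as the Hox genes: 18 of 40 (45.0%) had none in any library, and 7 had one in all 12, among them Hhex and Hlx, which are active in blood cells, with means of 2671 and 1455 bp.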

How the data were processed

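Broad peaks were called by the authors in each of the 12 libraries with MACS2 2.2.7.1 from reads aligned to mm10 with BWA 0.7.17, per the submitters' processing notes, which also name SAMtools 1.9, bedtools 2.30 and deepTools 3.5. Per the labels, groups differ in guide and vector. The deposited lists give zero-based positions, a score (not used), a ratio or fold of pileup over background, −log10 p and −log10 q; the last served for ranking peaks inside their list and for a stricter threshold, and the fold is printed for single peaks. Each library's list was used alone, so depth is unknown. Peaks on unplaced contigs (1699) were left out.

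Genes were those of the RefSeq GRCm38.p6 table, which shares mm10 coordinates. Covered length in each gene window (span ± 10 kb) was scaled to equal total coverage, and limma 3.58.1 (trend, 4 groups, R 4.3.3) was run on log2(length + 500 bp) for the 11890 genes whose mean reached 500 bp; Benjamini-Hochberg adjustment covered all of them. Cluster sums and region presence used exact permutation tests stratified by the other factor (python 3.11.15, numpy 2.4.6, pandas 2.3.3). The presence test was added to the planned ones after the lists had been seen. Named by rule were all members, with each library's value for Hoxb8 and the members with the highest means, and regions found in all 12 libraries or gained or lost; other genes were named only where called, apart from those said to have been picked afterwards. On data simulated for the T618I effect over 11890 genes, limma recovered 91 of 100 genes with a true log2 change of 1 and 59 of 100 with 0.5, and called 13 others. Members and lists were chosen with earlier results of these data known. The genome sequence was not used here, so no region sequence is printed. Some items are not reported here.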

Additional observations from a re-analysis of the deposited data

How the results depend on the processing

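No member was called by limma for T618I, sgB2 or the interaction in any of the 23 alternatives that could be run; a minimum mean of 1000 bp left no member to test. No cluster test passed in any of its 19 alternatives, with adjusted p between 0.08 and 1 for Hoxc and sgB2. The Hoxd tests rested on 1 covered library and could not pass in any of them. Over the alternatives that kept all libraries, the T618I effect at Hoxb3 and Hoxb4 ranged from -0.39 (equal-length lists) to 0.17 and the interaction from -0.86 (pseudocount of 100 bp) to -0.06 (stricter peaks). The T618I effect turned positive without scaling (0.17) and when scaled to the number of peaks (0.055), and at Hoxb4 in a 5 kb window (0.10, with 0.078 for sgB2); with 1 library left out it ranged from -0.12 to 0.057, positive without sgNT/Empty replicate 2 or sgB2/T618I replicate 3. Without scaling or scaled to the number of peaks, the T618I difference was 202 and 78.7 bp for Hoxb and 83.3 and 20.3 bp for Hoxc; in equal-length lists it was -322.5 and -133 bp. Over the alternatives with all libraries the sgB2 difference ranged from -426 to -24.1 bp for Hoxb, from 89.1 to 561 bp for Hoxc and from 0 to 116 bp for Hoxa. With stricter peaks (−log10 q of at least 5), Hoxa and Hoxd differences were 0 bp for both factors, as was Hoxd in equal-length lists, because no peak was left there. With 1 library left out, the T618I difference ranged from -231 to 38.8 bp for Hoxa, -124 to 148 bp for Hoxb, -150 to 197 bp for Hoxc and -47.3 to 0 bp for Hoxd, and the sgB2 difference from -70.9 to 198 bp for Hoxa, -390 to -110 bp for Hoxb, 331 to 687 bp for Hoxc and 0 to 47.3 bp for Hoxd; both Hoxa signs turned without sgB2/Empty replicate 3, which holds the only Hoxd peak.

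Regions in at least 2 libraries fell from 7 to 3 with stricter peaks and to 4 in equal-length lists, and ranged from 6 to 7 with 1 library left out; the region at Hoxb4 was in all libraries throughout. Gains and losses with sgB2 fell from 1 to 0 with stricter peaks and in equal-length lists, where the Hoxc6 region was found in 2 sgB2/Empty libraries and no other, and ranged from 1 to 2 with 1 library left out (2 without sgB2/Empty replicate 1 or sgB2/T618I replicates 1 or 2). Those with T618I were 0, but 1 in equal-length lists, and 0 to 1 with 1 library left out (1 without sgNT/T618I replicate 2 or sgB2/T618I replicates 2 or 3).

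The labels give the groups the same replicate numbers. Deviations of same-numbered libraries correlated between -0.157 and 0.218 over 18 pairs, over 0.1 in 4, and 4 of 12 libraries correlated best with their own number, so the numbers were not taken to pair libraries. With a replicate block, 0 members were called, and Hoxc with sgB2 gave an exact p = 0.125 (adjusted p = 0.875; smallest possible 0.0312). Over all genes, 365 and 113 were called for T618I and sgB2 with the block, against 372 and 122. Counts of all genes called for sgB2 fell to 14 without scaling, to 33 with stricter peaks, and rose to 211 when scaled to the number of peaks, to 219 with no filter and to 432 in a 50 kb window; for T618I they were 197 with stricter peaks, 561 in equal-length lists, 992 in a 50 kb window and 229 with list length as a covariate. With 1 library left out they ranged from 155 to 417 for T618I (235 or fewer without any 1 of sgNT/T618I replicates 1, 2 and 3 and sgB2/T618I replicates 1 and 2) and from 69 to 183 for sgB2 (78 or fewer without sgNT/Empty replicate 3, sgNT/T618I replicates 1 or 3 or sgB2/T618I replicate 3).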

Other observations

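Among the other developmental homeobox genes followed for comparison, Gbx2 and Pax2 were called by limma. Gbx2, a midbrain-hindbrain factor, rose with sgB2 (1.02 ± 0.17, SE, log2; adjusted p = 0.00958), from 192 ± 199 and 161 ± 147 bp in sgNT/Empty and sgNT/T618I to 762 ± 246 and 966 ± 309 bp in sgB2/Empty and sgB2/T618I (SD, n = 3). All 6 sgB2 libraries lay above all 6 sgNT libraries, and the gene reached the mean of 500 bp required for the test only through the sgB2 groups. With no required mean its adjusted p was 0.0135 over 16277 genes. Pax2, a kidney factor, fell by 1.07 ± 0.24 with T618I (adjusted p = 0.0253), from 678 ± 428 and 1491 ± 675 bp in the Empty groups to 316 ± 353 and 151 ± 133 bp. It reached the required mean only through the Empty groups, and with no required mean its adjusted p was 0.0368. Over all genes 1.03% were called for sgB2 and 3.13% for T618I. Without scaling neither gene was called (adjusted p = 0.0811 for Gbx2 and 0.104 for Pax2). Over the alternatives, the adjusted p ranged from 0.00318 to 0.0811 for Gbx2 and from 0.00206 to 0.11 for Pax2. With 1 library left out, the Pax2 call was lost in 6 of 12 cases (sgNT/Empty replicates 1 and 3, sgB2/Empty replicate 3, sgNT/T618I replicates 1 and 2, sgB2/T618I replicate 2), and Gbx2 fell under the required mean in the 4 fits without sgB2/Empty replicate 1 or any 1 of the sgB2/T618I libraries, so its other fits say nothing about stability. Gbx2 and Pax2 also fell under that mean, and were not tested, in the 5 kb window, with stricter peaks and in equal-length lists.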
